A study of Mus musculus with 6 samples.

Results

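The 10 genes described here encode transcription regulators of fat cell fate that lie outside the C/EBP, PPAR and KLF families. They are the zinc finger factors *Zfp423* and *Zfp467*, the early B cell factors *Ebf1* and *Ebf2*, the signal transducers *Stat5a* and *Stat5b*, the GATA factors *Gata2* and *Gata3*, the liver X receptor *Nr1h3*, and the corepressor *Tle3*. They were taken by gene symbol and are 10 of the 35999 symbols with a summed count. All 10 passed the filter on low counts and are among the 16069 genes tested.

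RNA was sequenced from the inguinal white adipose tissue (iWAT) of 10-week-old female mice on a C57BL6/J background, fed chow ad libitum, with 3 Cebpa_ASKO mice and 3 Cebpa_fl/fl littermates. All 6 mice carried 2 floxed *Cebpa* alleles, and the Cebpa_ASKO mice also carried AdipoQ-Cre, a recombinase driven by the adiponectin promoter. *Cebpa* is therefore removed in adipocytes, while vessels, blood cells, mammary ducts and progenitors without adiponectin expression should keep it, which was not measured. The paper cites committed preadipocytes of iWAT that already express *Adipoq*. Whole tissue of 1 mouse gave each poly-A library, and the labels state that lymph nodes were removed and give a single batch. The comparison asks how these regulators stand when fat cells have lost C/EBPα, a factor that drives their maturation. Total estimated counts were 46237121, 46601320 and 49477671 in Cebpa_fl/fl mice 1, 2 and 3, and 33141769, 37957065 and 42243013 in Cebpa_ASKO mice 1, 2 and 3. The lowest count of any of the 10 genes in any library was 181, for *Gata2*, and the highest was 8238, for *Stat5a*.

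Fat cells arise when fibroblast-like progenitors commit to the lineage and then switch on a network led by PPARγ and C/EBPα. ZFP423 and the EBF factors act early in that sequence, in progenitors and vessel-associated cells, and keep their roles in mature fat: ZFP423 holds the white state against the beige programme, while EBF2 favours the brown and beige one. STAT5A and STAT5B carry growth hormone and prolactin signals to the nucleus and promote adipogenesis, whereas GATA2 and GATA3 hold preadipocytes back. LXRα, the product of *Nr1h3*, senses oxidized cholesterol as a heterodimer with a retinoid X receptor, and TLE3 is a Groucho-type corepressor that works with PPARγ in white fat cells.

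Several of these genes are also used by cells other than adipocytes. EBF1 is a B cell factor, GATA3 a factor of T cells and of the luminal mammary epithelium, GATA2 a factor of mast cells and endothelium, and LXRα is abundant in macrophages. Marker genes of those cells therefore stand beside the results. The library of Cebpa_fl/fl mouse 1 stood apart from the other 5. The summed level of 5 B cell markers was 159.9 TPM in it, against between 2.39 and 4.57 TPM in the others, and that of 8 T cell and innate lymphoid markers was 100 TPM, against between 7.82 and 23.1 TPM. TPM is a share of the library per transcript length. The most abundant genes were *Cd79a* and *Cd2*, and results are given with and without this library where they rest on it.

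The genotype was first checked on *Cebpa* itself (chr7:35119293-35121928, plus strand of GRCm38). Its level in CPM, counts scaled to a common library size with TMM factors, was 448, 465 and 498 in Cebpa_fl/fl mice and 37.7, 45.8 and 37.2 in Cebpa_ASKO mice. The Cebpa_ASKO libraries kept 8.55% of the Cebpa_fl/fl mean, a log2 fold change of -3.55 (standard error (SE) 0.13, edgeR adjusted p = 0.000163). The labelled tissue also carried its markers in every library. The summed level of 10 adipocyte markers, led by *Fabp4*, was 20590, 25530 and 20610 TPM in Cebpa_fl/fl mice and 12760, 11690 and 10730 TPM in Cebpa_ASKO mice. Of these markers, 5 were called lower and none higher, namely *Adipoq*, *Cidec*, *Lpl*, *Plin4* and *Plin1*, and the sums did not overlap. The log2 fold change was negative for 9 of the 10 markers and positive for 1, *Gpd1* (0.82, edgeR adjusted p = 0.331). In whole tissue, fewer fat cells and less of a transcript in each fat cell cannot be told apart.

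Loss of adipocyte *Cebpa* left most of the 10 regulators without a called change. A call needed an edgeR adjusted p below 0.05, with the adjustment made over every gene tested. By that rule *Nr1h3* and *Zfp423* were lower in Cebpa_ASKO iWAT, none was higher, and 8 were not called. The background was 3.84% of the 16069 genes called lower and 1.39% called higher. The log2 fold changes of the 10 genes ran from -1.31 (*Nr1h3*) to 0.72 (*Gata3*), 5 were negative and 5 positive, and their median was -0.08. The median over all genes tested was 0.02, with quartiles of -0.16 and 0.21. In CPM, all Cebpa_ASKO libraries lay below all Cebpa_fl/fl libraries for *Nr1h3*, *Zfp423* and *Ebf1*, and above them for *Stat5b*, while the genotypes overlapped for the other 6. Such separation was seen downward for 13.2% and upward for 12.9% of all genes tested.

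**Figure D1:**
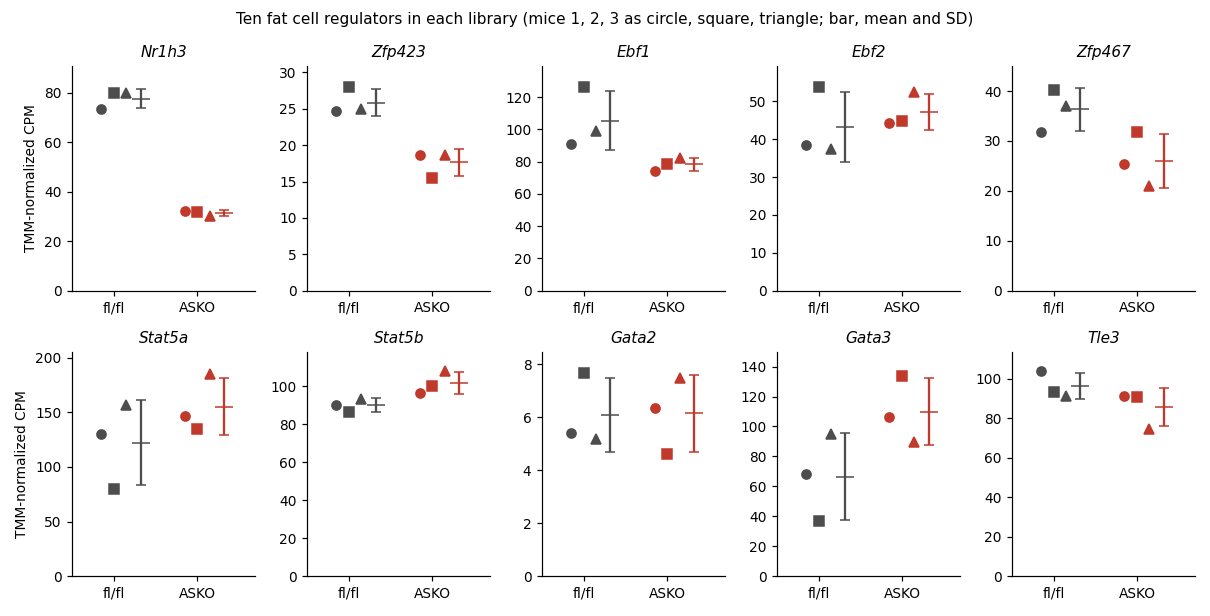
Level of each of the 10 regulators in TMM-normalized CPM (y axis, from 0) in the 3 Cebpa_fl/fl and 3 Cebpa_ASKO libraries, with each mouse as a point and the mean and SD as a bar. The genotypes are widely apart for *Nr1h3*, narrowly apart for *Zfp423*, *Ebf1* and *Stat5b*, and overlap for the others.

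Ordered by level per transcript length, the 10 genes stood differently in the 2 genotypes. In Cebpa_fl/fl mice *Nr1h3* had the highest mean at 58.0 ± 5.71 TPM (SD, n = 3), followed by *Stat5a* at 44.1 ± 13.0 TPM, *Gata3* at 37.4 ± 16.7 TPM and *Zfp467* at 34.9 ± 8.49 TPM. *Nr1h3* was the highest of these 4 in each Cebpa_fl/fl library, and the order of the other 3, whose spreads overlap, is not resolved. *Tle3* (26.1 ± 1.15 TPM), *Ebf1* (25.7 ± 6.60 TPM) and *Stat5b* (22.0 ± 1.02 TPM) formed a middle group, and *Ebf2* (10.9 ± 3.06 TPM), *Zfp423* (9.35 ± 1.51 TPM) and *Gata2* (3.31 ± 1.36 TPM) were the lowest. In Cebpa_ASKO mice *Gata3* (69.9 ± 21.5 TPM) and *Stat5a* (60.5 ± 12.2 TPM) led, and *Nr1h3* was 4th at 24.3 ± 1.62 TPM, within the spread of *Stat5b*, *Tle3* and *Zfp467*. The lowest 3 kept their places.

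*Nr1h3* (ENSMUSG00000002108.10, chr2:91184061-91202834, minus strand) changed the most. The stretch just upstream of its main start site is shown because the gene was lower under every setting tried. Several of its transcripts also start close to this site. For *Zfp423*, 2 of the start regions, those with a RefSeq window, are shown because its transcripts begin at separate places. The sequences are those of RefSeq for GRCm38.p6, printed along the minus strand without exons, and capitals mark a match to the C/EBP motif TTGCNNAA, searched on both strands, where it reads TTNNGCAA on the other.
Nr1h3, chr2:91195152-91195366: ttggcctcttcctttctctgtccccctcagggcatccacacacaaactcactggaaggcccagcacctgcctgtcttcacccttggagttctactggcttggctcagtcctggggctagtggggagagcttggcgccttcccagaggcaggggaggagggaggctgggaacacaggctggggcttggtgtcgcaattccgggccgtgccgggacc
Zfp423 upstream start, chr8:87959596-87959845: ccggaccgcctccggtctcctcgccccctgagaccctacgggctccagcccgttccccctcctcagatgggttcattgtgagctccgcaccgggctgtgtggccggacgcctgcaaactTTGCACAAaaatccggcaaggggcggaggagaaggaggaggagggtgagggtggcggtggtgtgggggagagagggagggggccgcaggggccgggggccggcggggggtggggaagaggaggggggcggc
Zfp423 downstream start, chr8:87804440-87804689: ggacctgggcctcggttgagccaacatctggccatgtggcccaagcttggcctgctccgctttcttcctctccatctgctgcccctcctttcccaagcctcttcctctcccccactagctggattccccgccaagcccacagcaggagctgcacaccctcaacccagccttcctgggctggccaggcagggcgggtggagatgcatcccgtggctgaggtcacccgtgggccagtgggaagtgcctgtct
Of the 10 genes 9 matched by symbol (all but *Ebf2*), with 15 windows of 300 bases, 250 before to 50 after a start. The motif was in 1 of those 15, the upstream window of *Zfp423*, with its first bases 131 bases before and 22 bases after the start. Of all 32851 windows of that length, 10.8% held it. A match is a string of letters and not a bound site, and its lack in the *Nr1h3* windows covers only those bases.

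The CPM of *Nr1h3* was 73.3, 79.7 and 79.8 in Cebpa_fl/fl mice and 32.2, 31.8 and 30.1 in Cebpa_ASKO mice. Each genotype was tight, and the lowest Cebpa_fl/fl library was far above the highest Cebpa_ASKO library. The Cebpa_ASKO mean was 40.4% of the Cebpa_fl/fl mean, a log2 fold change of -1.31 (SE 0.08, 95% interval -1.49 to -1.12, edgeR adjusted p = 0.000724). It was called in all 17 settings, with log2 fold changes from -1.35 to -1.22. Leaving out Cebpa_fl/fl mouse 1 gave -1.35 (edgeR adjusted p = 0.00249).

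The fall of *Nr1h3* ran through both of its abundant transcripts. Nr1h3-201 stood at 22.5, 29.8 and 30.9 TPM in Cebpa_fl/fl mice and at 10.5, 11.1 and 10.8 TPM in Cebpa_ASKO mice. Nr1h3-202, which starts nearby, stood at 23.2, 27.2 and 22.2 TPM and at 10.5, 11.7 and 9.55 TPM. Neither overlapped between genotypes, and the share of Nr1h3-201 in the gene's TPM was 47.6 ± 3.83% and 44.5 ± 1.82% (SD, n = 3 each; exact two-sided permutation p = 0.3, adjusted over the 10 genes 0.889). Among 3 against 3 libraries the smallest p that test can give is 0.1.

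The genes on either side of *Nr1h3* were not called. *Acp2*, a lysosomal phosphatase gene whose annotation begins 50 bases away on the other strand, averaged 68.6 and 67.7 CPM (log2 fold change -0.02, edgeR adjusted p = 0.946). *Madd*, 223 bases away on the same strand, averaged 26.6 and 29.8 CPM (log2 fold change 0.17, edgeR adjusted p = 0.576).

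Macrophages also make LXRα, and their 8 markers, led by *Lyz2*, summed to 1364, 2790 and 957 TPM in Cebpa_fl/fl mice and to 1481, 1722 and 2389 TPM in Cebpa_ASKO mice. These sums overlapped, none of the 8 was called, and neither *Adgre1* nor *Csf1r* was at 0. The summed adipocyte markers, led by *Fabp4*, moved with *Nr1h3*, at 52.7% of their Cebpa_fl/fl sum. Of these 10 markers 9 were negative and *Gpd1* was positive, and their part in the fall of *Nr1h3* was not tested. Of 12669 genes compared over the 6 libraries, those whose log2 CPM followed *Nr1h3* most closely were *Abcd2*, a peroxisomal transporter gene (Pearson r = 0.9994), *N4bp2l1* (r = 0.9991) and *Pon3*, a lactonase gene (r = 0.9986), and 461 genes had r above 0.95. All these points share the same 6 libraries and the genotype difference.

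**Figure D2:**
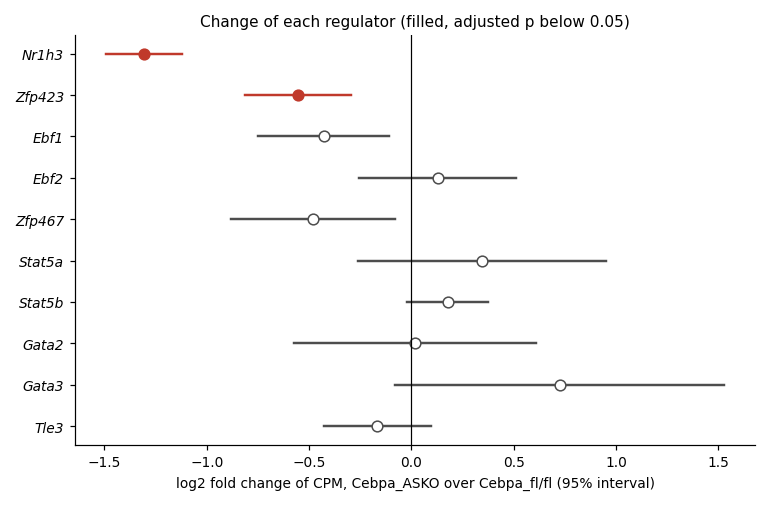
Log2 fold change of CPM, Cebpa_ASKO over Cebpa_fl/fl, for each regulator (x axis) with its 95% interval from edgeR as a line, filled where the adjusted p is below 0.05. *Nr1h3* at -1.31 stands clear of the rest, *Zfp423* at -0.55 is the other called gene, and *Gata3* has the widest interval, from -0.08 to 1.53.

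LXRα binds DNA beside a retinoid X receptor, and of its 8 partners and cofactors 2 were called lower and none higher, with a list median of -0.06, or -0.10 without Cebpa_fl/fl mouse 1. *Rxrg* was 24.97, 20.4 and 22.3 CPM in Cebpa_fl/fl mice and 13.2, 11.4 and 11.1 CPM in Cebpa_ASKO mice (log2 fold change -0.93, SE 0.12, edgeR adjusted p = 0.00835). *Rxra* was 146, 175 and 168 CPM against 107, 114 and 115 CPM (log2 fold change -0.54, SE 0.10, edgeR adjusted p = 0.0295). The genotypes did not overlap for either receptor. *Rxrg* was called in 17 of 17 settings and *Rxra* in 8. *Nr1h2*, which encodes the sister receptor LXRβ, averaged 65.6 ± 2.38 and 69.5 ± 4.16 CPM and was not called, nor was *Ncor1*, the most abundant of the list per length.

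LXR activates genes of cholesterol export, lipoproteins and lipogenesis. Of 14 such genes tested, 2 were called lower, none was called higher, and the list median was 0.08, or 0.05 without Cebpa_fl/fl mouse 1. *Apoc1*, an apolipoprotein gene, was 130, 87.7 and 123 CPM in Cebpa_fl/fl mice and 39.5, 30.3 and 49.2 CPM in Cebpa_ASKO mice (log2 fold change -1.52, SE 0.22, edgeR adjusted p = 0.0126). *Apoe*, which lies in the same apolipoprotein cluster, was 2107, 2620 and 2045 CPM against 1281, 1364 and 1220 CPM (log2 fold change -0.81, SE 0.17, edgeR adjusted p = 0.0432). Both fell with no overlap. The call of *Apoc1* held in 16 of 17 settings and was lost without Cebpa_ASKO mouse 1 (edgeR adjusted p = 0.0796). That of *Apoe* held in 7 of 17 settings and was lost without Cebpa_fl/fl mouse 1. *Apoc2*, a further apolipoprotein gene of that cluster named after its values were seen, was 1.43, 1.53 and 1.87 CPM against 0.32, 0.23 and 0.70 CPM, without overlap (log2 fold change -1.93, SE 0.44), and was not called (edgeR adjusted p = 0.0595). The cholesterol exporters *Abca1* (185 and 201 CPM on average) and *Abcg1* (22.1 and 22.8 CPM) and the lipogenic regulator *Srebf1* (328 and 367 CPM), named here after their values were seen, were not called. *Scd1* and *Scd2*, desaturase genes named for the same reason, had log2 fold changes of 0.84 and 1.12 and were not called (edgeR adjusted p = 0.381 and 0.312). *Scd2* and *Mylip*, also named after its values were seen (log2 fold change 0.40, edgeR adjusted p = 0.135), lay apart upward, with no overlap between genotypes.

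*Zfp423* (ENSMUSG00000045333.15, chr8:87661810-87959595, minus strand) was 24.7, 27.9 and 24.96 CPM in Cebpa_fl/fl mice and 18.7, 15.6 and 18.6 CPM in Cebpa_ASKO mice. The genotypes did not overlap, and the drop was smaller than that of *Nr1h3*. The Cebpa_ASKO mean was 68.2% of the Cebpa_fl/fl mean, a log2 fold change of -0.55 (SE 0.11, 95% interval -0.81 to -0.29, edgeR adjusted p = 0.0373). The direction held in all 17 settings and the call in 5. It was lost whichever library was left out (edgeR adjusted p from 0.0608 to 0.113), and -0.59 (edgeR adjusted p = 0.0923) was the value without Cebpa_fl/fl mouse 1. Per transcript length the Cebpa_ASKO mean was 77.1% of the Cebpa_fl/fl mean, 7.21 ± 1.12 against 9.35 ± 1.51 TPM (SD, n = 3), and limma on log2(TPM + 1) gave -0.33 (adjusted p = 0.337).

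The gene *Zfp423* has several start sites. The main coding transcript, Zfp423-203, begins at the downstream start shown above and was 4.32, 6.46 and 4.39 TPM in Cebpa_fl/fl mice and 2.74, 4.002 and 3.18 TPM in Cebpa_ASKO mice. Zfp423-202, from the upstream start that holds the motif, was 1.44, 1.12 and 2.32 TPM against 0.40, 0.37 and 2.25 TPM. Zfp423-204, a transcript with no annotated coding sequence, was 1.33, 2.58 and 1.17 TPM against 2.42, 1.07 and 2.41 TPM. Only the first of the 3 had genotypes apart. The share of Zfp423-203 in the gene's TPM was 53.6 ± 4.01% and 47.6 ± 17.5% (SD, n = 3 each; exact permutation p = 0.6, adjusted p = 0.889), and the wide spread in Cebpa_ASKO mice came from mouse 2, at 67.6% against 35.2% and 40.1%.

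**Figure D3:**
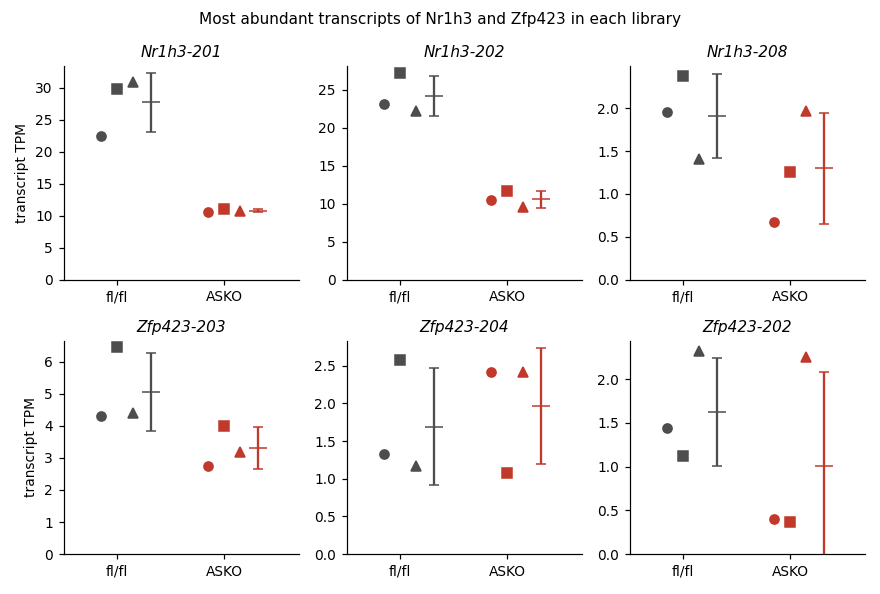
TPM of the 3 most abundant annotated transcripts of *Nr1h3* (top) and *Zfp423* (bottom) in each library, each mouse as a point, with the mean and SD as a bar whose part below 0 is not drawn. Nr1h3-201, Nr1h3-202 and Zfp423-203 are lower in every Cebpa_ASKO library than in any Cebpa_fl/fl library, and the other 3 overlap.

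ZFP423 acts in progenitors and pericytes and amplifies BMP signalling. The 9 progenitor and fibroblast markers, led by *Dcn*, summed to 2124, 4327 and 2041 TPM in Cebpa_fl/fl mice and to 3334, 3637 and 4305 TPM in Cebpa_ASKO mice, with overlap and no gene called. The 8 pericyte and smooth muscle markers, led by *Acta2*, summed to 297, 415 and 394 TPM and to 416, 532 and 453 TPM, with *Abcc9* called higher and the sums just apart. Neither sum had a lower mean in Cebpa_ASKO mice. In the second list 6 of 8 genes were positive, and 2 were negative, *Rgs5* and *Pdgfrb* (log2 fold change -0.17 each, not called). The part of these cells in the *Zfp423* values was not tested. Of 14 BMP signalling genes 1 was called lower and none higher, and the median was 0.06, or -0.01 without Cebpa_fl/fl mouse 1. The one called was *Id1*, a BMP-induced inhibitor of basic helix-loop-helix factors, at 31.3, 33.6 and 28.0 CPM against 11.8, 7.53 and 11.52 CPM (log2 fold change -1.59, SE 0.19, edgeR adjusted p = 0.00541). *Id1* was called in 17 of 17 settings. Its relatives *Id2* and *Id3*, named after their values were seen, had log2 fold changes of 0.45 and 0.33, with every Cebpa_ASKO library above every Cebpa_fl/fl library and no call. The genes closest to *Zfp423* over the libraries were *Edem1* (r = 0.9968), *Cxcl9* (r = 0.9932) and *D17Wsu92e* (r = 0.9929), with 234 of 12669 genes above r = 0.95.

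*Zfp467*, a zinc finger gene that favours fat over bone in marrow stromal cells, was 31.8, 40.3 and 37.0 CPM in Cebpa_fl/fl mice and 25.3, 31.8 and 21.01 CPM in Cebpa_ASKO mice. The lowest Cebpa_fl/fl and the highest Cebpa_ASKO library met at the same level. The log2 fold change was -0.48 (SE 0.17, 95% interval -0.88 to -0.08), and its edgeR adjusted p of 0.179 did not pass. In TPM the genotypes were apart, at 34.9 ± 8.49 and 23.2 ± 3.67 TPM (SD, n = 3).

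The log2 fold changes of the early B cell factors lay on opposite sides of 0. *Ebf1* (chr11:44617317-45008091, plus strand) was 91.1, 126 and 99.0 CPM in Cebpa_fl/fl mice and 74.5, 78.5 and 82.3 CPM in Cebpa_ASKO mice. All Cebpa_ASKO libraries were lower, with Cebpa_fl/fl mouse 2 well above the rest, and the log2 fold change of -0.43 (SE 0.13, 95% interval -0.75 to -0.11) was not called (edgeR adjusted p = 0.141). In TPM the genotypes overlapped, at 25.7 ± 6.60 and 20.2 ± 3.49 TPM (SD, n = 3). *Ebf2* (chr14:67233292-67430918, plus strand) was 38.5, 53.9 and 37.4 CPM against 44.4, 44.7 and 52.6 CPM, a log2 fold change of 0.13 (SE 0.16, 95% interval -0.26 to 0.51, edgeR adjusted p = 0.746). Its genotypes overlapped, and its log2 fold change was 0.31 without Cebpa_fl/fl mouse 2 and between 0.02 and 0.05 without Cebpa_fl/fl mouse 1, Cebpa_fl/fl mouse 3 or Cebpa_ASKO mouse 3. Cebpa_fl/fl mouse 1, the library with high B cell markers, had the lowest *Ebf1* of the 3, and the part of B cells in the *Ebf1* values was not tested. Without it the log2 fold change of *Ebf1* was -0.52 (edgeR adjusted p = 0.126). Without mouse 2 it was -0.29 (edgeR adjusted p = 0.129).

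Of 23 other tested genes of the EBF family and of fat cell fate, none was called lower, *Sox9* was called higher, and the median was -0.04, or -0.12 without Cebpa_fl/fl mouse 1. *Sox9*, which keeps progenitors undifferentiated and also marks duct epithelium, was 9.84, 12.4 and 12.3 CPM in Cebpa_fl/fl mice and 18.1, 18.8 and 18.0 CPM in Cebpa_ASKO mice (log2 fold change 0.67, SE 0.12, edgeR adjusted p = 0.0291). The genotypes did not overlap, and the call held in 8 of 17 settings, without Cebpa_fl/fl mouse 1 not among them. *Nfia*, a partner of the EBF factors in brown fat named after its values were seen, had a log2 fold change of -0.54 (edgeR adjusted p = 0.0561) and was called once Cebpa_fl/fl mouse 1 was left out. *Irf3*, the most abundant of the list per length, was not called.

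The STAT5 genes lie 8626 bases apart on chromosome 11 on opposite strands and encode closely similar proteins. *Stat5b* (chr11:100780731-100850724, minus strand) was 90.3, 86.3 and 93.6 CPM in Cebpa_fl/fl mice and 96.7, 100 and 108 CPM in Cebpa_ASKO mice. Every Cebpa_ASKO library was higher, but by little, with a log2 fold change of 0.18 (SE 0.08, 95% interval -0.02 to 0.37, edgeR adjusted p = 0.306) that was 0.11 without Cebpa_ASKO mouse 3. *Stat5a* (chr11:100859351-100885169, plus strand) was 130, 80.0 and 157 CPM against 147, 134 and 185 CPM, with overlap and a log2 fold change of 0.34 (SE 0.25, 95% interval -0.26 to 0.95, edgeR adjusted p = 0.527). That value was 0.10 without Cebpa_fl/fl mouse 2, 0.57 without Cebpa_fl/fl mouse 3 and 0.18 without Cebpa_ASKO mouse 3. *Stat5a* varied more between mice, with a coefficient of variation of 32.0% in Cebpa_fl/fl mice against 4.06% for *Stat5b*. Its last 72 bases overlap *Stat3* on the other strand, and the sources used here do not give the strand setting of the counting, so reads there cannot be told apart. Longer annotated overlaps lie at other regulators. Among them are *Gm13783* at *Nr1h3* (6873 bases) and *9230102O04Rik* at *Gata3* (6500 bases), both on the same strand. *Ebf1*, *Ebf2* and *Gata3* also overlap genes on the other strand. *Stat3* itself averaged 151 and 176 CPM and was not called. The main transcript Stat5a-202 made up 75.4 ± 3.34% of the gene's TPM in Cebpa_fl/fl mice and 70.0 ± 2.29% in Cebpa_ASKO mice. Those shares did not overlap (exact permutation p = 0.1, the smallest possible, adjusted p = 0.889), but shares of the estimated counts did.

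STAT5 is activated by Janus kinases at cytokine receptors. Of 11 genes of the STAT family and of growth hormone and prolactin signalling, 1 was called lower and none higher, with a median of 0.07. The growth hormone receptor gene *Ghr*, also the most abundant of the list per length, was 558, 826 and 676 CPM in Cebpa_fl/fl mice and 121, 107 and 101 CPM in Cebpa_ASKO mice (log2 fold change -2.65, SE 0.18, edgeR adjusted p = 0.000783). It was called in 17 of 17 settings. The prolactin receptor gene *Prlr*, named after its values were seen, was 415, 180 and 618 CPM against 645, 770 and 513 CPM, with overlap and no call.

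Among 9 known STAT5 targets, *Cish* was called higher, none was called lower, and the median was 0.36. *Cish*, a feedback inhibitor of cytokine signalling, was 16.6, 20.5 and 30.6 CPM in Cebpa_fl/fl mice and 47.5, 64.1 and 47.4 CPM in Cebpa_ASKO mice (log2 fold change 1.23, SE 0.24, edgeR adjusted p = 0.0386). The genotypes did not overlap. The call held in 10 of 17 settings and was lost without Cebpa_fl/fl mouse 1, when none of the 9 was called and the median was 0.61. *Igf1* and *Socs2*, growth hormone targets named after their values were seen, had log2 fold changes of -0.57 and 0.09 and were not called (edgeR adjusted p = 0.106 and 0.922).

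**Figure D4:**
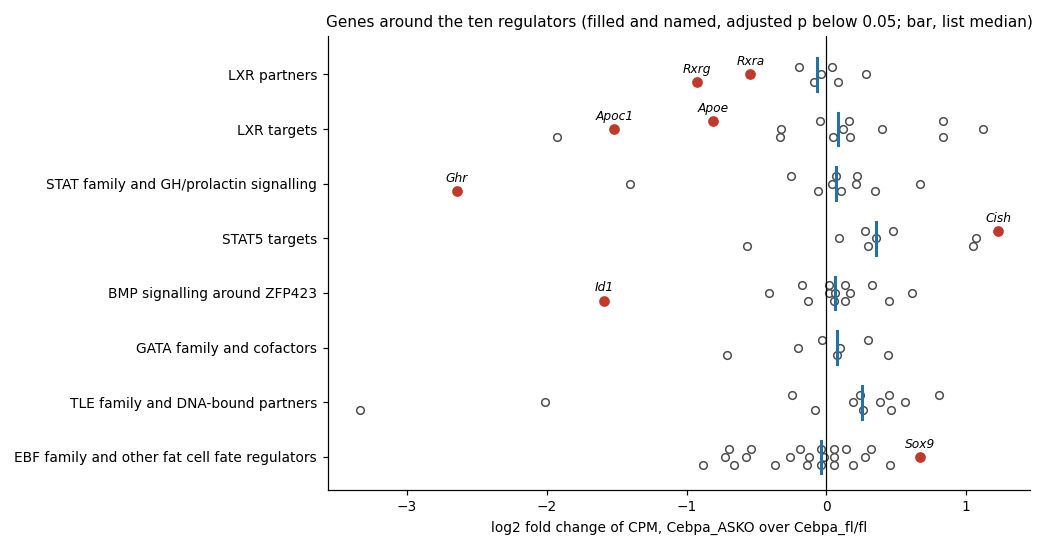
Log2 fold change of CPM, Cebpa_ASKO over Cebpa_fl/fl (x axis), for every tested gene of 8 lists around the 10 regulators, with genes called at an adjusted p below 0.05 filled and named and the list median as a bar. Between 0 and 2 genes of each list were called, led by *Ghr* at -2.65, and list medians lay between -0.06 and 0.36.

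*Gata3* (chr2:9857078-9890034, minus strand) had the largest upward value of the 10 and the widest interval. It was 68.0, 36.6 and 95.1 CPM in Cebpa_fl/fl mice and 106, 134 and 89.9 CPM in Cebpa_ASKO mice. Cebpa_fl/fl mouse 3 exceeded Cebpa_ASKO mouse 3, so the genotypes overlapped. The log2 fold change was 0.72 (SE 0.34, 95% interval -0.08 to 1.53, edgeR adjusted p = 0.3002), it was 0.74 without Cebpa_fl/fl mouse 1, and with 1 library removed at a time it lay between 0.42 and 1.07. *Gata2* (chr6:88193891-88207032, plus strand) was 5.39, 7.69 and 5.17 CPM against 6.34, 4.62 and 7.50 CPM, a log2 fold change of 0.02 (SE 0.25, 95% interval -0.57 to 0.61, edgeR adjusted p = 0.981). Its sign turned when any of 4 libraries was left out. None of 7 other tested GATA factors and cofactors was called, the most abundant of them, *Ldb1*, included, and their median was 0.08.

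Markers of other cells that use GATA factors stood as follows. The 9 mammary epithelial markers, led by *Krt19*, summed to 932, 712 and 1495 TPM in Cebpa_fl/fl mice and to 1885, 2053 and 2258 TPM in Cebpa_ASKO mice. Of the 8 tested, 7 were positive, 4 were higher in every Cebpa_ASKO library and none was called, and *Epcam* and *Krt8* were above 0 throughout. In Cebpa_fl/fl mice these sums ranked the libraries as the CPM of *Gata3*, *Prlr* and *Stat5a* did, with mouse 2 lowest and mouse 3 highest. In Cebpa_ASKO mice the order of the sums differed from that of each gene's CPM, but single markers differed among themselves. *Epcam* (196, 209 and 157 CPM) ranked these mice as *Gata3* and *Prlr* did, and *Krt8* (646, 540 and 716 CPM) as *Stat5a* did. The TPM of *Stat5a* in Cebpa_ASKO mice (52.7, 54.2 and 74.6) rose in the order of the sums. The T cell markers, whose genes were high in Cebpa_fl/fl mouse 1, did not come with the highest *Gata3* there. The 7 mast cell markers, led by *Mcpt4*, summed to 171, 301 and 111 TPM and to 286, 244 and 317 TPM. In both genotypes they ranked the libraries as the CPM of *Gata2* did. The TPM of *Gata2* in Cebpa_fl/fl mice (2.51, 4.88 and 2.54) gave another order. The 8 endothelial markers, led by *Egfl7*, summed to 181, 219 and 219 TPM and to 144, 141 and 201 TPM, with *Emcn* called lower, a call lost without Cebpa_fl/fl mouse 1. Of these 8, 7 were negative and 4 were lower in every Cebpa_ASKO library. The part of these cells in the *Gata2* and *Gata3* values was not tested.

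*Tle3* (chr9:61372366-61418497, plus strand) was 104, 93.4 and 91.2 CPM in Cebpa_fl/fl mice and 91.4, 90.8 and 74.7 CPM in Cebpa_ASKO mice. The genotypes overlapped, and the log2 fold change of -0.17 (SE 0.11, 95% interval -0.43 to 0.09) was not called (edgeR adjusted p = 0.473). It was -0.09 without Cebpa_ASKO mouse 3 and -0.11 without Cebpa_fl/fl mouse 1. The gene had 18 annotated transcripts. The leading one over all 6 libraries, Tle3-217, carried 22.4 ± 5.35% and 24.4 ± 5.01% of its TPM (SD, n = 3 each), the lowest leading share of the 10 genes in TPM. In Cebpa_fl/fl mice alone the mean of Tle3-215 was higher, at 6.33 against 5.85 TPM. By estimated counts Zfp467-201, the leading transcript of *Zfp467* in TPM, had a lower share (11.6% and 9.39%) than Tle3-217 (20.3% and 21.9%). Of 12 tested relatives and DNA-bound partners of TLE3 none was called in either direction, and their median was 0.25. The short family member *Aes* (*Tle5*) was the most abundant per length and was not called. *Lef1* and *Tcf7*, partners used by T cells and named after their values were seen, were 11.1 and 30.3 CPM in Cebpa_fl/fl mouse 1, and at most 0.61 and 4.79 CPM in the other 5 libraries.

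Across mice of a genotype the 10 genes did not rise and fall together. Cebpa_fl/fl mouse 2 had the highest *Zfp423*, *Ebf1*, *Ebf2*, *Zfp467* and *Gata2* of its genotype and the lowest *Stat5a*, *Stat5b* and *Gata3*. It also had the highest sum of progenitor and fibroblast markers among Cebpa_fl/fl mice, and the lowest sum of mammary markers. In Cebpa_ASKO mice, mouse 3 had the highest *Ebf1*, *Ebf2*, *Stat5a*, *Stat5b* and *Gata2* and the lowest *Zfp467*, *Gata3*, *Nr1h3* and *Tle3*. Its progenitor and fibroblast sum was again the highest of its genotype, but so was its mammary sum.

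The skeletal muscle markers, led by *Ckm*, summed to 476, 727 and 536 TPM in Cebpa_fl/fl mice and to 1874, 4128 and 1552 TPM in Cebpa_ASKO mice, with 6 of 10 called higher (*Myh4*, *Ckm*, *Actn3*, *Acta1*, *Tnnt3* and *Mylpf*), and 1 of 10 (*Myh4*) without Cebpa_fl/fl mouse 1. Without Cebpa_fl/fl mouse 1, *Nr1h3* was the only called gene of the 10, at a background of 2.72% of genes called lower and 0.399% called higher. *Rxrg*, *Rxra*, *Apoc1*, *Ghr* and *Id1* kept their calls there. Leaving out Cebpa_ASKO mouse 2, the library with the highest muscle sum, also left *Nr1h3* as the only call of the 10.

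**Figure D5:**
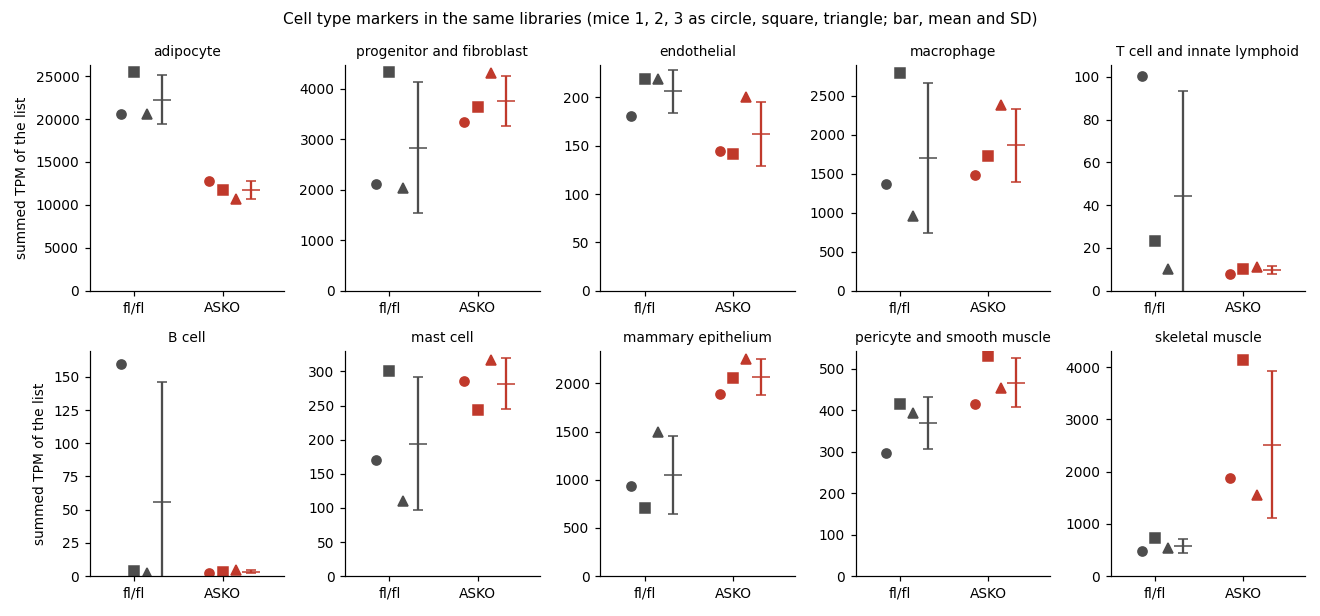
Summed TPM of the marker genes of 10 cell types (y axis, from 0) in the same libraries, each mouse as a point, with the mean and SD as a bar whose part below 0 is not drawn. Adipocyte sums are lower and mammary and skeletal muscle sums higher in every Cebpa_ASKO library, and B and T cell sums are highest in Cebpa_fl/fl mouse 1.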

How the data were processed

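Each of the 6 iWAT RNA samples, 3 a genotype, gave 1 library, and groups follow the sample labels. The authors deposited an estimated count, not normalized, and a TPM for each transcript, and a TPM table by gene symbol, made with kallisto 0.44.0 per the submitters' processing notes, which list GRCm38.p6 and GRCh38.p12. Estimated counts were summed by symbol with GENCODE M21 (GRCm38), which matched 116816 of 118489 transcripts, and rounded. Summed TPM of the 10 genes equalled 100% of the authors' gene values.

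CPM are scaled by TMM (factors 0.956 to 1.06). The main test was edgeR 4.0.16 quasi-likelihood with its default filter and Benjamini-Hochberg adjustment over 16069 genes (R 4.3.3). The study's methods name DESeq2, used here (1.42.0) as an alternative. Further alternatives were DESeq2 size factors, total counts, filters of at least 1 count in any and 10 counts in every library, a transcript length offset, limma 3.58.1 on log2(TPM + 1) and log2(TPM + 0.1) kept where 3 libraries reached a TPM of 1, or with no filter, the replicate number as a block, and each library left out. The fits were tested on simulated data. Depth limits precision through counting error. The edgeR p-values weigh the genotype difference against the spread between 3 mice a genotype, with that spread estimated partly from all genes tested.

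The 10 genes and the lists were chosen with earlier results of these data known. Named genes are the 10, the called genes of each list (up to 6), the most abundant gene of each partner or family list, and the 3 genes most like each called regulator, by Pearson r of log2 CPM at a mean log2 CPM of at least 1. Also named are *Cebpa*, *Nr1h2*, genes beside or overlapping a regulator, and the most abundant and some other genes of marker lists. Others are marked as named after their values were seen. Values for lists without Cebpa_fl/fl mouse 1 and list genes across settings were added after seeing the data. Lymph node, mammary and muscle transcripts were not removed, and 1 marker gene is not reported here. Python 3.11.15, pandas 2.3.3 and scipy 1.17.1 were used.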

Additional observations from a re-analysis of the deposited data

How the results depend on the processing

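Across the 16 alternatives *Nr1h3* kept its call and direction. The number of regulators called lower was 2 in the main analysis and 1 with total counts, with the length offset, with each of the 3 limma fits, with the replicate block, and as each library was left out (from 1 to 1), where *Zfp423* lost its call and *Nr1h3* kept it. None was called higher in any setting. *Gata2* ran from -0.17 to 0.21 as libraries were left out, changing sign in 4 of 6 fits, and the other 9 regulators kept their direction in every setting. The genes called in all were 840, and 1802 with DESeq2, which included all 840, 359 with limma on log2(TPM + 1) without a filter, and 311 (without Cebpa_ASKO mouse 1) to 922 (without Cebpa_fl/fl mouse 2) as libraries were left out. The share of calls that were higher was 26.5%, 37.0% with DESeq2, and 10.6% (without Cebpa_ASKO mouse 1) to 30.9% (without Cebpa_ASKO mouse 3) as libraries were left out, with 12.8% without Cebpa_fl/fl mouse 1. The cause was not tested. Same-numbered mice showed no sign of pairing (correlations of their deviations 0.07, 0.03 and -0.20), which cannot exclude it among littermates. With the replicate number as a block 370 genes were called, 355 of them shared with the main analysis. The genotype difference in leading transcript share moved by less than the larger of the 2 genotypes' SDs in all 70 alternatives, though for *Zfp423*, whose Cebpa_ASKO SD was 17.5, it ran from -16.0 (without Cebpa_ASKO mouse 2) to 0.20 percentage points (without Cebpa_ASKO mouse 1). With 3 mice a genotype, *Ebf1* and *Zfp467* had 95% intervals that left out 0 and did not pass the adjustment over all genes, and the interval of *Gata3* held 0.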
